A study of Mus musculus with 8 samples.

Results

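A run of 31 neighbouring array probes on mouse chromosome 14 was low in 7 of 7 livers of the FEAT transgenic line, 6 tumours and 1 normal liver, and was at the reference level in the 1 wild-type liver. It took in every probe of Loxl2, Entpd4 and the cDNA clone BC086315, and 3 of the 7 probes of Slc25a37. The members described here were the probes that the array names for these 4 genes or clones, together with 5 probes without a gene name between positions 64128347 and 64327455, and came to 32 of 232626 probes in all. Of the 32 members, 28 lay inside the run and 4, all of Slc25a37, lay to its left. The other 3 probes of the run carried the names D930020E02Rik, AK046150 and AK031288. The region was chosen by its low log2 ratios on these same arrays, so its levels against wild-type liver are given as a description, with no test. Positions follow the array's annotation, and their genome build and strand are not given in the sources used here.

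The arrays were 2-colour comparative genomic hybridisation arrays, which measure the dose of genomic DNA and not expression. Each gave a log2 ratio of the test liver over the DNA of a liver from a healthy wild-type C57BL/6 male aged 6 months. The test samples were 6 hepatocellular carcinomas from C57BL/6 males carrying the FEAT transgene, aged 16, 21, 20, 18.5, 22 and 12 months for tumours 1 to 6, then 1 normal liver of a FEAT transgenic male aged 13 months and 1 liver of a wild-type C57BL/6 male aged 6 months. FEAT is the protein encoded by Mettl13. The labels used here do not give the promoter that drives the transgene, how the transgenic mice were related, or whether the wild-type test liver and the reference came from the same animal. Tissue DNA is an average over cells, so that a loss in every cell and a deeper loss in some of the cells cannot be told apart.

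Loxl2 encodes a secreted, copper-dependent amine oxidase that oxidises lysines in collagen and elastin, the first step of their covalent cross-linking, and it is known for its part in matrix stiffening in liver fibrosis. Entpd4 encodes a nucleoside diphosphatase of the Golgi and lysosome membranes, where such enzymes remove the nucleotides left by sugar transfer. Slc25a37 encodes mitoferrin-1, the carrier of the inner mitochondrial membrane that brings iron in for the synthesis of haem and iron-sulphur clusters, and is used above all by developing red cells. D930020E02Rik is the older name of Synb, which encodes syncytin-B, an envelope protein of retroviral origin that fuses cells of the mouse placenta.

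The 4 probes that border the left and right ends are shown because they set how closely the ends can be placed. They are written 5′ to 3′ as the array file gives them, all in lower case since no part of them is singled out.
Slc25a37, last probe outside, chr14:64121782-64121831: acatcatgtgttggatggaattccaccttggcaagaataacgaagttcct
Slc25a37, first probe inside, chr14:64128347-64128406: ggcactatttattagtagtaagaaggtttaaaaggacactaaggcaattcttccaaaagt
Loxl2, last probe inside, chr14:64327401-64327455: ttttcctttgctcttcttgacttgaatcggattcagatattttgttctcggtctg
AK006177, first probe outside, chr14:64341590-64341649: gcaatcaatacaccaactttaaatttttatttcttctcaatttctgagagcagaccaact

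Slc25a37 was divided by the left end. Its last probe outside the run was at -0.67, 0.25, 0.06 and 0.01 in tumours 1, 3, 4 and 6 and at 0.52 in wild-type liver, with no value in tumours 2 and 5. Its deposited value in normal FEAT liver recurs to every digit on 6809 spots of that array (2.91% of its values) and is not read here as a measurement. Its next probe, the first inside, was at -1.42, -1.20, -1.09, -1.53, -1.08 and -1.42 in tumours 1 to 6, -1.28 in normal FEAT liver and -0.11 in wild-type liver. The inner probe was thus low on all 7 arrays of the transgenic line, whereas the outer one was at or below -0.5, the threshold used here for a low probe, in tumour 1 alone of the 4 tumours that measured it. The gap between them is 6515 bases. The outer probe was weak, with a reference signal of 150 on the wild-type array against a median of 898 over all spots. Inside the run, the weak probe starting at 64149113 (408) was low on 4 of 7 FEAT-line arrays and read -0.14 in tumour 4. Whether the values of the weak outer probe place the end was not tested. In tumours 2 and 5 and in normal FEAT liver the nearest outer probe with its own value, starting at 64116114, leaves a gap of 12173 bases and was at 0.21, -0.11 and 0.19.

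The right end lay beyond the last Loxl2 probe. That probe was at -1.79, -1.09, -0.66, -0.94, -0.91 and -0.34 in tumours 1 to 6, -0.97 in normal FEAT liver and -0.01 in wild-type liver. The next probe, of the transcript AK006177, was at -0.29, 0.46, -0.07, 0.60, 0.15 and 0.17 in tumours 1 to 6, 0.15 in normal FEAT liver and -0.13 in wild-type liver. On every transgenic array the Loxl2 probe was the lower of the pair, by least in tumour 6. These probes are 14134 bases apart.

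A least-squares search for a single altered segment, made on each array alone over the 200 probes on either side, put the left end at the same probe, starting at 64128347, in 7 of 7 FEAT-line arrays. It put the right end at the probe ending at 64327455 in 6 of 7, and 1 probe earlier, at the Loxl2 probe before it, in tumour 6. From the first to the last probe of the run the segment spans 199 kb. Taken at their values, the nearest measured flanking probes allow at most 220 kb in tumours 3, 4 and 6. They allow 225 kb in tumours 2 and 5 and in normal FEAT liver. The limit of 220 kb rests on the weak outer Slc25a37 probe. The probe beyond it, starting at 64116114, was at 0.34, 0.17 and 0.22 in tumours 3, 4 and 6. In tumour 1 the nearest left probe was itself low (-0.67) and sets no limit. Its next probe outward, starting at 64116114, was at 0.11 and again leaves 225 kb. At the array's spacing the fitted ends in tumours 1 to 5 could not be told apart from those in normal FEAT liver. In tumour 6 the fitted right end differed by 1 probe, and whether its end lies elsewhere was not tested. Different ends within the same gaps would not have been seen. In the wild-type liver the search, which always returns a segment, did not return the run. It gave 5 probes from 64550093 to 64578751, the fewest allowed, at a mean of 0.44.

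**Figure D1:**
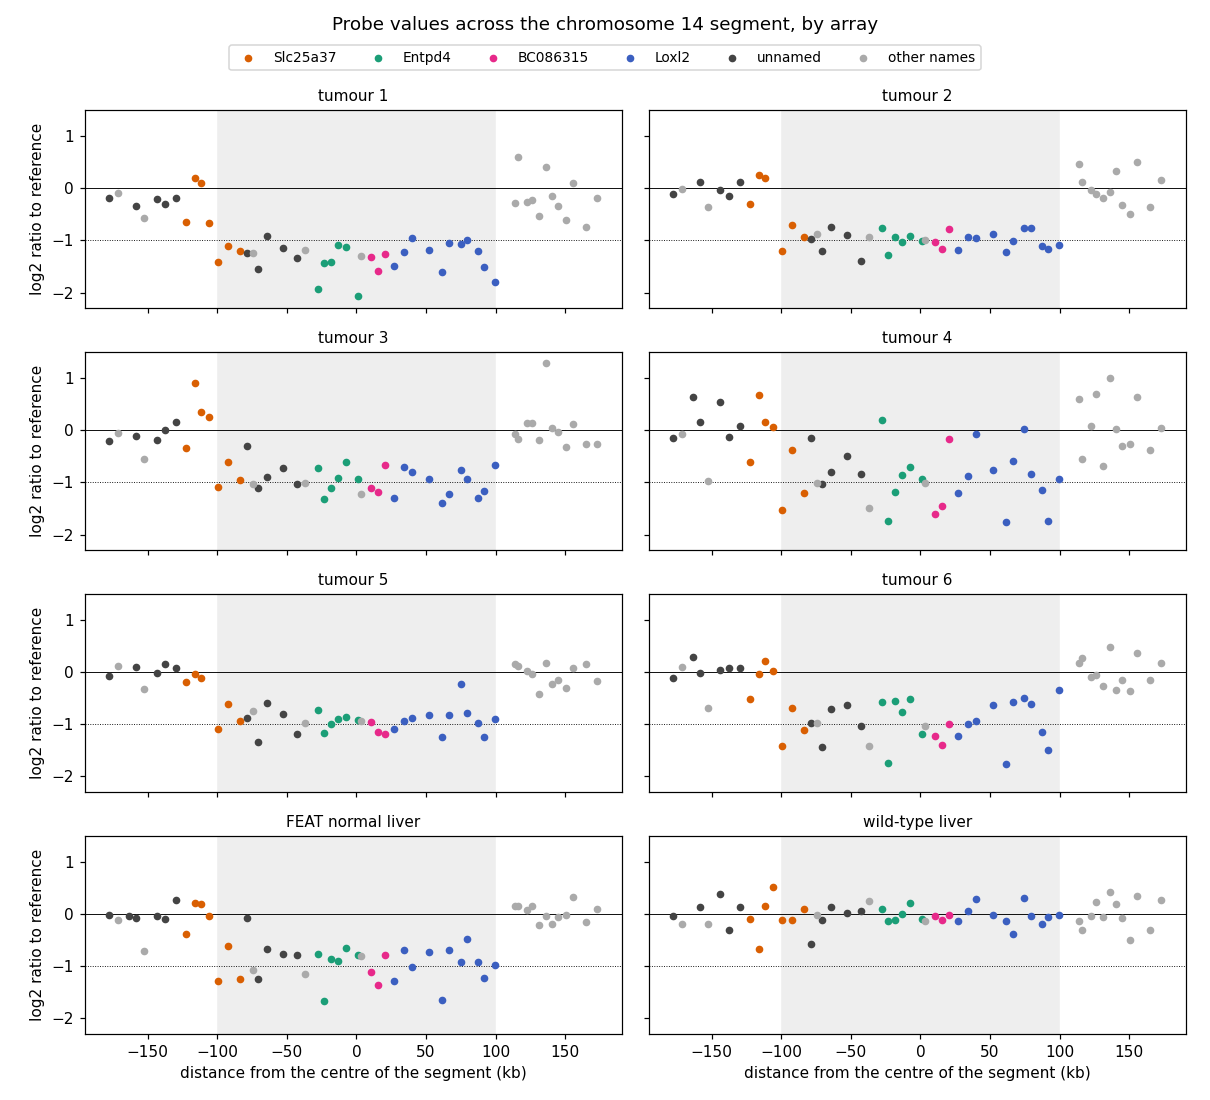
Log2 ratio of test over reference DNA for each probe (vertical axis) against the distance in kb from the centre of the segment (horizontal axis), 1 panel per array. The probes of the segment lie near -1 in the 6 tumours and normal FEAT liver and near 0 in wild-type liver, and tumour 1 is lower than 0 on both sides of it as well.

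The median log2 ratio over the 31 probes was -1.24, -0.98, -0.96, -0.94, -0.93 and -0.99 in tumours 1 to 6, -0.91 in normal FEAT liver and -0.03 in wild-type liver. The 6 tumours averaged -1.01 ± 0.12 (SD, n = 6). All 7 FEAT-line livers lay below the 1 wild-type liver. The region was chosen by these values, so nothing is read from that separation. On a linear scale the region held 42.3, 50.8, 51.4, 52.2, 52.5 and 50.4% of the reference dose in tumours 1 to 6, 53.2% in normal FEAT liver and 97.7% in wild-type liver. A log2 ratio of -1 is 50% of the reference dose, the dose left when one of a pair of autosomal copies is missing from every cell. In the tumours the medians of Loxl2, Entpd4 and BC086315 averaged -0.98, -0.97 and -1.21. Slc25a37 was near that ratio only in its inner 3 probes, at -1.06, against 0.04 in its outer probes. The number of copies in the reference DNA, and so in the test DNA, was not tested.

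Tumour 1 stood below the others, and so did the DNA around the segment in it. The 100 probes on each side had medians of -0.29, -0.03, -0.01, -0.01, 0.00 and -0.01 in tumours 1 to 6, -0.02 in normal FEAT liver and -0.02 in wild-type liver, and the rest of chromosome 14 in tumour 1 was at -0.25. Set against its own flanks, the segment was at -0.95, -0.95, -0.95, -0.92, -0.93 and -0.98 in tumours 1 to 6, -0.89 in normal FEAT liver and -0.01 in wild-type liver. On this measure tumour 1 lay inside the range of the other tumours. The tumours held 51.9 ± 0.637% of the dose of their flanks (SD, n = 6), the normal FEAT liver 53.8% and the wild-type liver 99.0%.

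**Figure D2:**
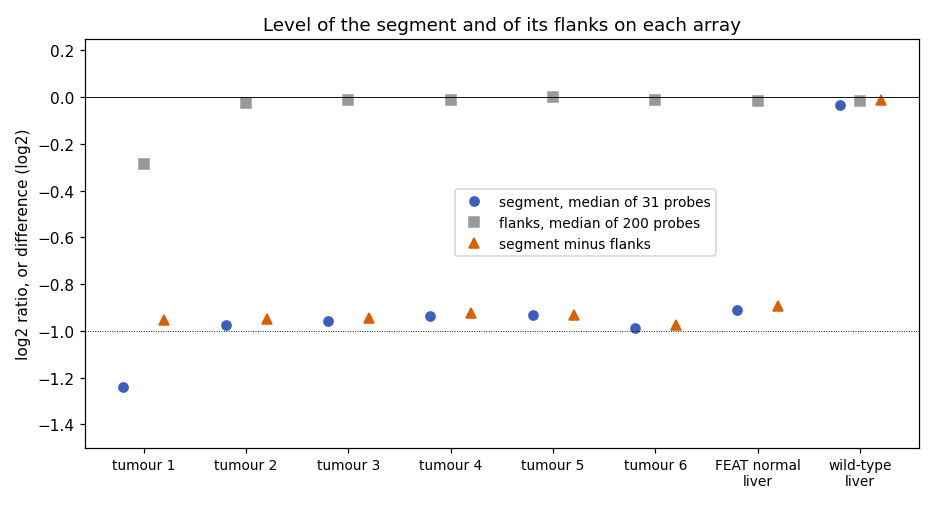
Median log2 ratio of the 31 probes of the segment and of the 200 probes beside it on each array. The tumours lie between -1.24 and -0.93 and the normal FEAT liver at -0.91, all below the wild-type liver at -0.03, and only tumour 1 has flanks below -0.03.

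The choice of the region did not rest on the difference between the tumours and the normal FEAT liver, which were both low. The region median was lower in 6 of 6 tumours than in normal FEAT liver, with a mean difference of -0.10 (exact two-sided permutation test, p = 0.286). Relative to the flanks the difference was -0.05, again with 6 of 6 tumours lower (exact two-sided permutation test, p = 0.143). With 6 tumours and 1 normal liver there are 7 splits, and 0.143 is the smallest p this design can give, so that it cannot reach 0.05. A single normal liver also leaves its own spread unknown. The count of lower tumours depends on the summary of the probes. With the mean of the 31 probes in place of their median, the mean difference was -0.08. On that measure tumours 4 (-0.91) and 5 (-0.93) lay above normal FEAT liver (-0.94), and the other tumours lay below it.

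The same comparison was made by gene with limma, on the mean of a gene's probes. Of 16992 genes tested, 0 (0%) were called at an adjusted p of 0.05, while 421 had an unadjusted p under that value. With the recurring values of normal FEAT liver and of tumour 3 (305 spots) set to missing, an alternative added after seeing the data, limma called 13 genes. The 4 members were not called in either direction by either fit. Loxl2 averaged -1.01 ± 0.14 in the tumours (SD, n = 6) and -0.96 in normal FEAT liver, a difference of -0.04 (SE 0.15, limma adjusted p = 1.00). The differences were -0.08 (SE 0.21) for Entpd4, -0.03 (SE 0.15) for BC086315 and -0.00 (SE 0.15) for Slc25a37, each with a limma adjusted p of 1.00. These standard errors are larger than the differences, and the fit assumes that the lone normal liver varies as the tumours do. With the recurring values set to missing, 1 Slc25a37 probe lost its value in normal FEAT liver and the difference for that gene was 0.0747 (limma adjusted p = 1.00). Loxl2 and Slc25a37 were lower than the normal FEAT liver in 3 of 6 tumours each, and Entpd4 and BC086315 in 2 of 6.

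Loxl2 had the most probes, 11, all inside the segment. Their median was -1.20, -1.02, -0.93, -0.88, -0.91 and -0.93 in tumours 1 to 6, -0.93 in normal FEAT liver and -0.03 in wild-type liver. The normal FEAT liver lay within the range of the tumours. Of 77 Loxl2 values on the 7 FEAT-line arrays, 72 were at or below -0.5, and the probe medians over these arrays ran from -1.61 to -0.77.

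Entpd4 had 6 probes, all inside. Their median was -1.42, -0.97, -0.93, -0.90, -0.91 and -0.67 in tumours 1 to 6, -0.82 in normal FEAT liver and -0.05 in wild-type liver. Tumour 1 was lowest and tumour 6 highest among the FEAT-line livers. Of 42 values on FEAT-line arrays, 41 were at or below -0.5. The exception was 1 probe starting at 64200354, which read 0.19 in tumour 4 and -1.93 in tumour 1.

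The 3 inner probes of Slc25a37 had medians of -1.19, -0.93, -0.96, -1.21, -0.93 and -1.12 in tumours 1 to 6, -1.24 in normal FEAT liver and -0.11 in wild-type liver. The 4 outer probes had medians of -0.27, 0.21, 0.29, 0.11, -0.11 and -0.01 in tumours 1 to 6, 0.07 in normal FEAT liver and 0.03 in wild-type liver. One of the 4 was marked as a dim, outlying or saturated spot on the wild-type array, and without it the outer medians averaged -0.09 ± 0.30 in the tumours (SD, n = 6) and were at 0.15 in wild-type liver. With the recurring value set to missing, the outer median of normal FEAT liver was 0.18, and -0.11 without the marked probe as well. In each FEAT-line liver the median of the inner probes was below that of the outer ones. The end that divides them was placed by these same values, so nothing is read from that order. In the tumours the inner probes averaged -1.06 ± 0.13 and the outer ones 0.04 ± 0.21 (SD, n = 6 each). A mean over all 7 probes, -0.42 in the FEAT line relative to the wild-type liver, mixes both parts and describes neither. The outermost of the 4, starting at 64105406, was between -0.65 and -0.19 on the FEAT-line arrays and at -0.10 in wild-type liver.

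BC086315, a cDNA clone for which the array gives no function, had 3 probes. Their median was -1.32, -1.02, -1.11, -1.45, -1.14 and -1.22 in tumours 1 to 6, -1.12 in normal FEAT liver and -0.03 in wild-type liver. The 5 probes without a gene name had medians of -1.24, -0.98, -0.90, -0.80, -0.88 and -0.97 in tumours 1 to 6, -0.76 in normal FEAT liver and 0.02 in wild-type liver. Both sets belong to a region chosen for low values on these arrays, so their distance from the 1 wild-type liver is description only. Among the unnamed probes, the one starting at 64149113 read -0.07 in normal FEAT liver and -0.58 in wild-type liver, and was the only probe of the segment at or below -0.5 in wild-type liver.

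The single probe of Synb was at -1.23, -0.87, -1.03, -1.02, -0.74 and -0.97 in tumours 1 to 6, -1.07 in normal FEAT liver and -0.01 in wild-type liver. AK046150 and AK031288, transcripts known from cDNA clones, had tumour means of -1.17 ± 0.24 and -1.08 ± 0.14 (SD, n = 6 each), with -1.15 and -0.81 in normal FEAT liver and 0.25 and -0.14 in wild-type liver. All 3 were low on 7 of 7 FEAT-line arrays. In the RefSeq order of GRCm38.p6, 13 genes lie between Slc25a37 and Loxl2, of which 6 code for proteins and 7 are long non-coding RNAs. One of them is Entpd4b, a close relative of Entpd4 that the array does not name, and whether Entpd4 probes also bind its DNA was not tested.

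**Figure D3:**
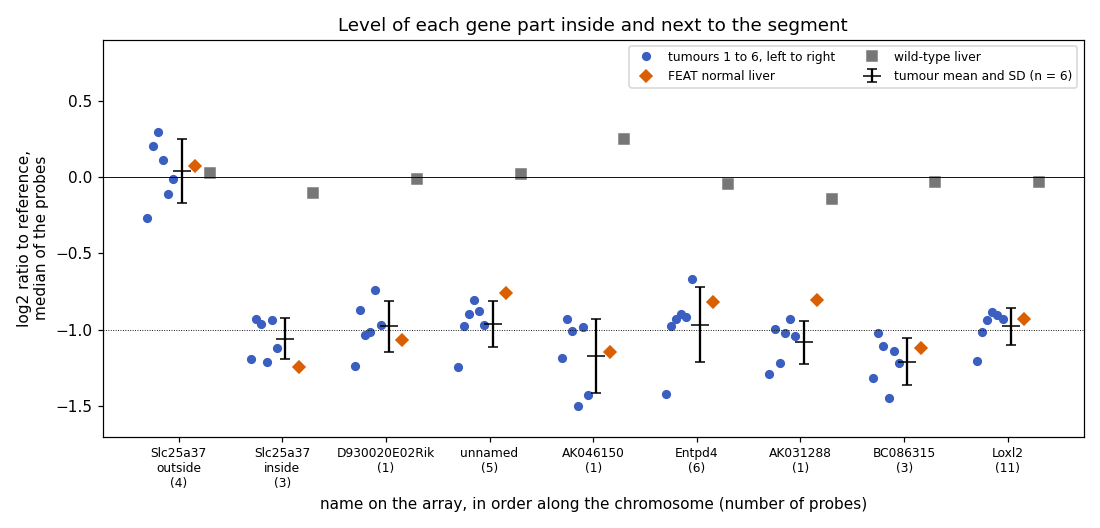
Median log2 ratio per array for each gene or group of probes, ordered along the chromosome. The 4 outer Slc25a37 probes average 0.04 in the tumours, while each part inside the segment averages between -1.21 and -0.96, with the wild-type liver between -0.14 and 0.25.

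The probes of the segment were not equally low. The lowest and the highest by their median on the FEAT-line arrays, with the lowest of Entpd4 and of BC086315, are given here so that the sequences can be set against the values.
Loxl2, lowest, chr14:64289109-64289168: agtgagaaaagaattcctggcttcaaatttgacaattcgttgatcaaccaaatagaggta
Slc25a37, highest, chr14:64135787-64135846: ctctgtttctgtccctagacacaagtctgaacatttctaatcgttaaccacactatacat
Entpd4, lowest, chr14:64204646-64204705: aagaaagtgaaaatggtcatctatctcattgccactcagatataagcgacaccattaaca
BC086315, lowest, chr14:64243291-64243350: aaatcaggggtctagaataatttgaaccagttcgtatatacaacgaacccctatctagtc

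The lowest Loxl2 probe was at -1.61, -1.23, -1.39, -1.76, -1.25 and -1.77 in tumours 1 to 6, -1.65 in normal FEAT liver and -0.13 in wild-type liver. The highest probe, of Slc25a37, was at -1.10, -0.71, -0.61, -0.38, -0.62 and -0.70 in tumours 1 to 6, -0.61 in normal FEAT liver and -0.11 in wild-type liver. The Loxl2 probe was the lower of the 2 on each FEAT-line array, although both lie in the same segment. The lowest Entpd4 probe was between -1.74 and -1.17 in the tumours and at -1.67 in normal FEAT liver. The lowest BC086315 probe was between -1.58 and -1.14 in the tumours and at -1.37 in normal FEAT liver.

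Probe levels moved with probe brightness. Over the 31 probes, the FEAT-line median had a Spearman correlation of -0.77 and a Pearson correlation of -0.75 with the red (reference) signal on the wild-type array, the only array whose signals were used here. The red signal ran from 392 to 13365. The 15 brightest probes averaged -1.14 ± 0.12 in the tumours (SD, n = 6), -1.15 in normal FEAT liver and -0.05 in wild-type liver. The 16 dimmest averaged -0.86 ± 0.20 in the tumours (SD, n = 6), -0.79 in normal FEAT liver and -0.01 in wild-type liver. Brighter probes were thus lower in both kinds of FEAT-line liver. The correlation with GC content was 0.08 and with probe length 0.06, but the probes spanned only 33.3 to 39.0% GC and 55 to 60 bases. These are descriptions over probes of the same arrays, which are not replicates, and the part that brightness plays in the levels was not tested.

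**Figure D4:**
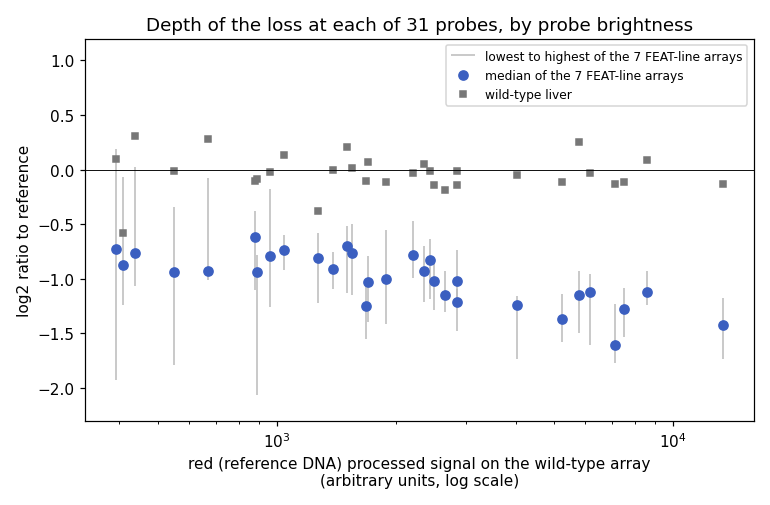
Median log2 ratio on the 7 FEAT-line arrays (vertical axis) against the red signal on the wild-type array (horizontal axis, log scale), 1 point per probe of the segment. Levels run from -0.62 for the highest probe to -1.61 for the lowest, with a Spearman correlation of -0.77.

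Single probes were noisy, which bears on every value from 1 probe. The SD among the 31 probes within an array was 0.27, 0.17, 0.26, 0.53, 0.22 and 0.38 in tumours 1 to 6, 0.34 in normal FEAT liver and 0.18 in wild-type liver. The number at or below -0.5 was 31, 31, 30, 25, 30 and 30 in tumours 1 to 6, 29 in normal FEAT liver and 1 in wild-type liver. Tumour 4, the noisiest array, held 6 of the 11 values above -0.5 among 217. All 31 probes were well above background in both channels of the wild-type array, and 0 carried a mark for a dim, outlying or saturated spot.

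Few probes elsewhere shared this pattern. Of 225482 probes with values, 137 (0.0608%) were at or below -0.5 on all 7 FEAT-line arrays and above it in wild-type liver, and 23 of them were among the 31 probes of the segment. The rule that picked the region used these values, so nothing is read from that share. The other 114 fell into 112 runs, of which 111 were single probes and the longest was 3 probes, in Mid1 on the X chromosome. Inside the segment the longest runs were 8 probes, from Entpd4 to BC086315, and 6 probes, around Synb.

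By gene, 54 of 16989 genes with at least 2 probes (0.318%) had a FEAT-line mean at least 0.5 below the wild-type liver. Loxl2 was at -0.97, Entpd4 at -1.003 and BC086315 at -1.06 on this measure. The nearest named genes outside the segment are given as FEAT-line means, without subtraction of the wild-type liver. On the right the 4 nearest were AK006177 (0.08), AK164271 (-0.36), Chmp7 (0.06) and AK133329 (-0.02). In wild-type liver these were at -0.06, -0.06, 0.18 and -0.07. Chmp7 encodes a protein of the membrane-remodelling ESCRT machinery. On the left the FEAT-line means were -0.60 for AK157645, -0.22 for the homeobox gene Nkx2-6 and -0.30 for AK007038. In wild-type liver these were at -0.18, 0.12 and -0.31, so AK007038 was about as low there. Among the neighbours given here, AK157645, measured by 1 probe, was the only one with a FEAT-line mean past -0.5. That is not the measure used for the members, which subtracts the wild-type liver. That probe read between -0.97 and -0.33 on the FEAT-line arrays and -0.18 in wild-type liver, and between it and the segment lie the 4 outer Slc25a37 probes.

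Other genes of the pathways in which the members act were compared in the same way, as the FEAT-line mean minus the wild-type liver, with at least 2 probes each. The members were chosen for low values on these arrays, so nothing is read from their place in the lists. Over all genes, 54 of 16989 (0.318%) were at least 0.5 below the wild-type liver. Of 17 collagen cross-linking genes compared, Loxl2 alone was at least 0.5 below the wild-type liver, and the next lowest was P4ha1, a collagen prolyl hydroxylase, at -0.23. Among its relatives, Lox was at -0.10, Loxl1 at 0.05, Loxl3 at -0.06 and Loxl4 at 0.04. Of 9 nucleotide hydrolase genes, 2 were that low, Entpd4 and Entpd2, which encodes an ATP-hydrolysing enzyme of the cell surface. Entpd2, on chromosome 2 and with 2 probes, was at -0.16, -0.32, -0.22, -0.80, -0.06 and -0.56 in tumours 1 to 6, -0.59 in normal FEAT liver and 0.44 in wild-type liver. Its difference of -0.82 thus combined FEAT-line values below 0 with a wild-type value above 0, whereas Entpd4 was at -0.01 in wild-type liver.

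Of 15 genes of mitochondrial iron and haem handling compared, 0 were at least 0.5 below the wild-type liver. The lowest was Slc25a37 at -0.42 and the next Alas1, the first enzyme of haem synthesis, at -0.17. Of 9 genes from the chromosome 14 neighbourhood, 0 were that low, and they ran from -0.15 for Tnfrsf10b, a death receptor, to 0.11 for Stc1, which encodes stanniocalcin-1. The medians of the 4 lists were -0.10, -0.07, -0.01 and -0.02 and that of all genes 0.00, in the order in which the lists are named here. Between tumours and normal FEAT liver, limma called no gene of these lists in either direction, and none over all genes in the same fit. Among the genes compared in these lists, Slc25a28 had the largest difference between tumours and normal FEAT liver. It encodes mitoferrin-2, the relative of the Slc25a37 product found in most tissues. Slc25a28 was between -0.36 and 0.19 in the tumours, -0.74 in normal FEAT liver and -0.23 in wild-type liver. Its difference between tumours and normal FEAT liver was 0.69 (SE 0.17), and it was not called.

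The genes over 1 Mb away whose values were most like those of the segment were ranked among 16954 genes by the root mean square difference from the region median over the 8 arrays. They were Apoc2 (0.318), an apolipoprotein gene, Ahsg (0.332), the fetuin-A gene, Duxbl1 (0.337), Cphx1 (0.347) and A3galt2 (0.378), each with 2 or 3 probes. None had a FEAT-line mean as low as the region median of any tumour. Apoc2 had a FEAT-line mean of -0.76, against -0.20 in wild-type liver, and Ahsg a FEAT-line mean of -0.66, against -0.00 in wild-type liver. Duxbl1 and Cphx1, both on chromosome 14 and under older names on the array, had FEAT-line means of -0.69 and -0.68, against -0.24 and -0.11 in wild-type liver.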

How the data were processed

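Genomic DNA of 6 tumours, 1 normal FEAT liver and 1 wild-type liver was hybridised to 2-colour Agilent 244A arrays, test in Cy3 and reference in Cy5, per the labels. The deposited values are log2 ratios. On the wild-type array, the only one with scanner output used here, they equalled the deposited log10 ratio with its sign turned and its base changed, plus 0.001 (r = -1, 231977 spots), so higher means more test DNA. For the other 7 arrays the direction is taken from the dyes that the labels name, and correlations of the 28 array pairs were all positive (0.264 to 0.760). Per the file headers, the intensity values came from Feature Extraction 9.1.3.1, protocol CGH-v4_91. Per the series description, CGH analytics 3.4 followed.

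Spots of a probe were averaged (232626 probes) and the median of autosomal probes was subtracted per array, with no loess or quantile step. One deposited log2 value recurred on 6809 spots of the normal FEAT array and another on 305 spots of tumour 3, none of them in the segment. No source used here says how these spots were filled. They were kept, and set to missing in an added alternative. Ends were fitted by least squares with at least 5 probes per segment. Genes were tested with limma 3.58.1 (R 4.3.3) and Benjamini-Hochberg adjustment, and region levels by exact permutation over 7 splits. The limma fit was also run on simulated data in which the lone normal liver varied as the tumours did. That run cannot show whether the real normal liver varies so. Python 3.11.15 with scipy 1.17.1 was used. The members and gene lists were chosen with earlier results of these data known. The text names the members, the 4 nearest named genes per side, the list genes with the largest shifts and the 5 most similar genes. One neighbour on the left is not reported here. The Lox relatives of Loxl2, the other names inside the segment and Mid1 were added after their values were seen. Names were matched through a RefSeq table of GRCm38.p6, used for names and gene order only. Alternatives covered centring, background, threshold, probe summary, window and each tumour left out.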

Additional observations from a re-analysis of the deposited data

Results flagged for a closer look

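Tumour 1 lay far from the other 5 tumours in the median of the segment, at -1.24, and in the median of its flanks, at -0.29. The other tumours lay between -0.99 and -0.93 in the segment and between -0.03 and 0.00 in the flanks. The median of the rest of chromosome 14 in tumour 1 was -0.25, and its segment relative to the flanks was at -0.95. Of 13 sets of 6 tumour values examined, 2 held a value this far from the rest, both of tumour 1. Chance at 1 in 20 gives 0.65 for independent sets. These sets come from the same arrays and overlap in probes, so nothing is read from that comparison.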

How the results depend on the processing

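Of 185 alternatives, 90 of which left out 1 tumour, 165 were judged the same. For these, levels stayed within the spread between tumours and differences kept their sign. Ends stayed at the same probe and counts stayed similar in size. The 11 that moved were all counts, of genes called or of low probes. The other 9 reversed a difference between tumours and normal FEAT liver. The level of the outer Slc25a37 probes, 0.04 in the tumours and within its spread of 0, also changed sign, to -0.0034 with the mean of probes, -0.0135 without tumour 3 and -0.0854 without the marked probe. The count of genes called by limma between tumours and normal FEAT liver was 0, but 2 with the median of a gene's probes, 13 with all named genes, 14 with centring on the mode, 13 with the recurring values set to missing and 199 over single probes, and 0 to 1 with a tumour left out (1 without tumour 4). None of the 28 member probes in the segment was called as a single probe. The probes low throughout the FEAT line and not in the wild-type liver numbered 137, but 562 at a threshold of -0.4, 24 at -0.7 and 84 with centring on the mode. They numbered 140 to 296 with a tumour left out, 296 without tumour 2 and 225 without tumour 5, since fewer arrays then had to pass. The tumour minus normal FEAT differences of single genes changed sign within their standard errors, to 0.0310 for Slc25a37 and 0.00564 for BC086315 with centring on the mode, and to 0.0747 for Slc25a37 with the recurring values set to missing. With a tumour left out they ran from -0.0654 to 0.00964 for Loxl2, -0.113 to 0.0151 for Entpd4, -0.0524 to 0.0396 for Slc25a37 and -0.0564 to 0.0235 for BC086315. The positive values came without tumour 1, and for Slc25a37 also without tumour 5 (0.00355) and tumour 6 (0.00623). The tumour level of the segment was -1.02 to -0.96 with a tumour left out, and -0.96 with centring on the mode. The alternatives on recurring values and on the marked probe were chosen after seeing the data. The cause of the other shifts was not tested. Precision is limited by 1 normal liver of each genotype, by single-probe noise and by the distance between probes at the ends.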
